A study of Mus musculus with 6 samples.

Results

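Intraflagellar transport and primary cilium genes were compared between tissue from above and from below the dorsal aorta of mouse embryos at E10.5. The 40 genes were chosen by function, as subunits of the intraflagellar transport (IFT) complexes, the BBSome and the cilium motors, but the group was picked from these same arrays because Hspb11, its IFT25 subunit, stood out in the ventral against dorsal comparison. That comparison is therefore a description for these genes, and no support is drawn from it. Of the 40 genes 38 had a named probe set among the 24675 genes measured, and Arl6 and Arl13b, small GTPases of cilia, were not analysed here.

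Embryos were of the strain C57Bl/6, and the labels name no mutation, transgene or treatment. Dorsal tissue was the strip between the notochord and the aortic roof, ventral tissue lay under the aorta, and laser microdissection of frozen sections gave 3 arrays of each. Per the labels the same embryos gave dorsal and ventral pieces, and how many embryos went into an array was not given. Signals are RMA values on the log2 scale from Affymetrix Gene 2.0 ST arrays, 1 probe set per gene, so a difference of 1 is a 2-fold change, and array medians lay between 3.20 and 3.27.

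A primary cilium is an antenna of membrane around a core of microtubules that most cells of the embryo carry, and vertebrate hedgehog signalling runs through it. IFT trains hold both complexes. IFT-B is tied to their run towards the tip with kinesin-2, and IFT-A to their return to the base with dynein-2. The BBSome, a coat of Bardet-Biedl syndrome proteins, rides on these trains and carries membrane proteins out of the cilium. Within IFT-B, IFT25 (the product of Hspb11) and the GTPase-like IFT27 bind each other as a pair. In the mouse this pair is dispensable for building most cilia but is needed for hedgehog signalling through them.

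Hspb11 has a close neighbour, Lrrc42, which is read in the opposite direction from almost the same promoter, and the stretch between both transcripts is shown because Lrrc42 serves as the nearest comparison for Hspb11. It spans 59 bases with 74.6% G or C (RefSeq, GRCm38.p6, chr4:107253534-107253592, plus strand). Capitals mark 2 matches to the GC box GGGCGG, a motif bound by Sp1-type factors.
Hspb11-Lrrc42: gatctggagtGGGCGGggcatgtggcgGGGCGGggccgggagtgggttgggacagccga

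The second set of sequences is shown because RFX factors, the regulators of many cilium genes, bind the X-box. The pattern GTNNCCNNNGNAAC was searched on both strands of 300-base promoters, from 250 bases before the start of transcription to 50 after it. Each sequence below reads along the gene's own strand in GRCm38.p6, with the match in capitals and 8 bases on each side. The upper site of Ift22 and the sites of Ift57 and Bbs1 match only when read on the opposite strand. Those of Bbs4 and Bbs1 lie just inside the transcript, and the others lie before its start.
Ift22, upper site (chr5:136908079-136908108, plus strand): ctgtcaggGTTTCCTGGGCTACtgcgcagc
Ift22, lower site (chr5:136908109-136908138, plus strand): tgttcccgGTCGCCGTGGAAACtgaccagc
Ttc26 (chr6:38381483-38381512, plus strand): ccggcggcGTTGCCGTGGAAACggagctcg
Ift57 (chr16:49699199-49699228, plus strand): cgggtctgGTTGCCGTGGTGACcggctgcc
Bbs7 (chr3:36613489-36613518, minus strand): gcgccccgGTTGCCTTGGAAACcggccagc
Bbs4 (chr9:59353464-59353493, minus strand): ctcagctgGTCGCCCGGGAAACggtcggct
Bbs1 (chr19:4906605-4906634, minus strand): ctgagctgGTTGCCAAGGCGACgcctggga

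Hspb11 had the largest difference of the group. Its log2 signal in dorsal arrays 1, 2 and 3 was 5.69, 5.75 and 5.87, while ventral arrays 1, 2 and 3 gave 3.26, 2.84 and 2.88. Every dorsal array lay above every ventral array, and the gap between the nearest arrays was 2.42, the third widest of all genes. The dorsal mean was 5.77 ± 0.09 and the ventral mean 2.99 ± 0.23 (SD over 3 arrays), a ventral minus dorsal difference of -2.77 ± 0.19 (SE), or a 6.84-fold higher dorsal signal. By size of difference Hspb11 ranked 21 of 24675 genes. Ventral arrays 2 and 3 lay below their medians and ventral array 1 just above its own, and without detection calls these dim values may be background, in which case the fold is too small. In tissue pieces such as these, fewer cells with the transcript and less transcript per cell cannot be told apart.

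**Figure D1:**
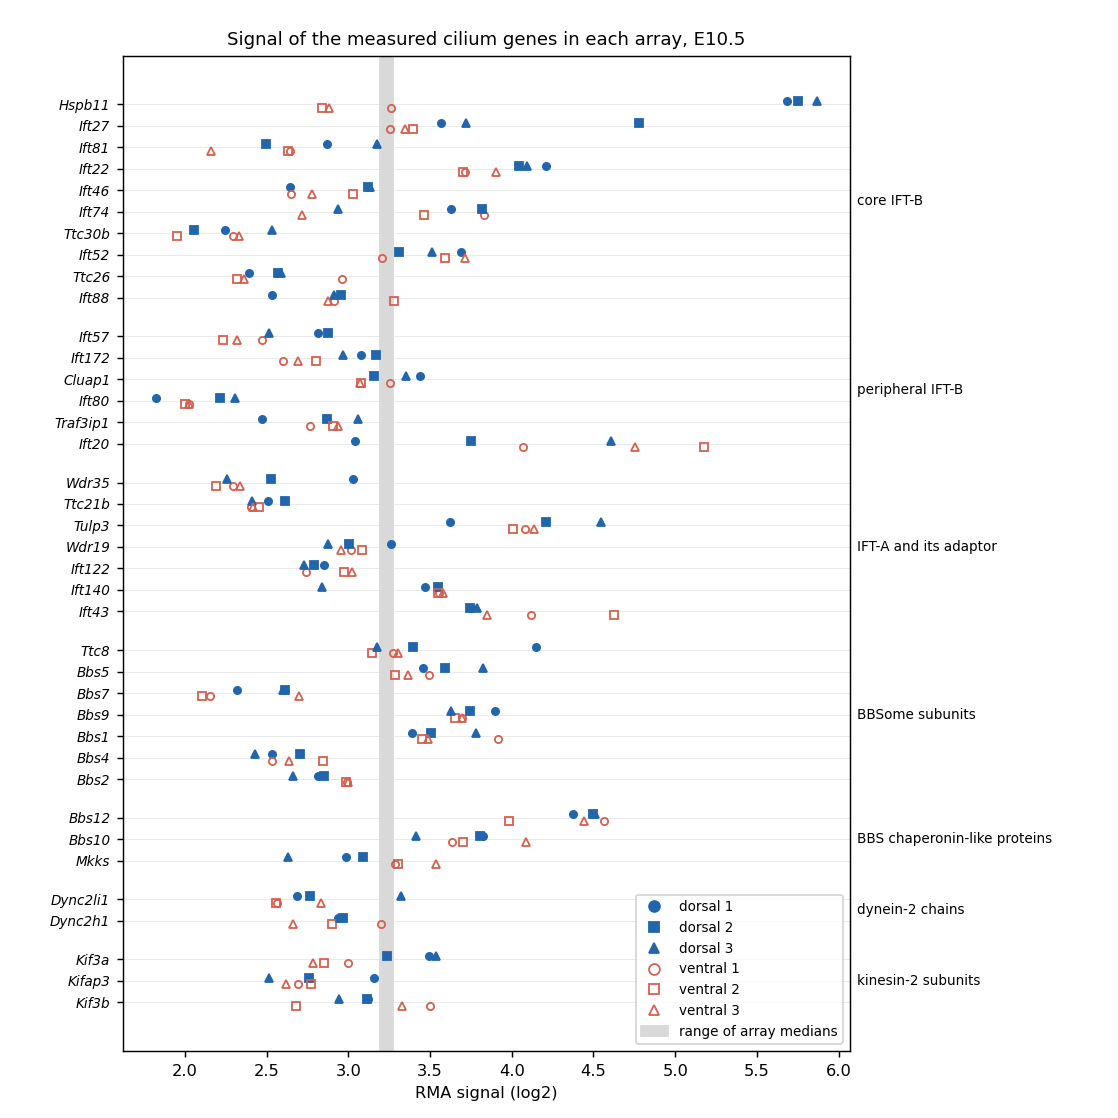
RMA signal (log2, horizontal axis) of the 38 measured genes in each array, grouped by complex, with filled blue symbols for dorsal and open red symbols for ventral arrays 1 to 3 and a grey band over the range of array medians. Hspb11 at the top is the gene whose dorsal symbols, at 5.69 to 5.87, stand far from its ventral symbols, at 2.84 to 3.26.

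The rest of the group did not share the size of this difference. Over all 38 genes the median difference was -0.08, against -0.06 over all genes measured, and 25 of the 38 (65.8%) were negative, against 58.0% of all genes. The differences of the other 37 ran from -0.69 for Ift27 to 0.87 for Ift20. After cyclic loess normalisation between arrays the median was -0.01 and 19 were negative, so the count of negative genes depended on the scaling of the arrays. The medians of the group in the pairs of equal replicate number were -0.05, -0.10 and -0.09.

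Limma with the replicate number as a block called 0 of 38 cilium genes at an adjusted p of 0.05, where 0% of all 24675 genes were called. At an unadjusted p under 0.05 the fit had 4 of 38 (10.5%), against 10.2% of all genes. Without the block limma called 1 gene in all (0.00405%), and it was Hspb11 (adjusted p = 0.0103 in limma), the gene that led to the choice of the group. With the block the adjusted p of Hspb11 in limma was 0.197, and over all alternatives it ran from 0.0103 to 0.35. The dorsal and ventral arrays did not overlap for 9 of 38 genes (23.7%), against 18.7% of all genes. Of these 6 were lower in ventral tissue (15.8%, against 12.0%) and 3 higher (7.89%, against 6.74%). The difference was negative in all 3 pairs for 8 genes (21.1%, against 21.8%) and positive in all 3 for 5 (13.2%, against 13.3%). Fewer arrays overlap less often, so counts with arrays left out are read against all genes with the same arrays left out. Without replicate 1 the count was 21 of 38 (55.3%, against 42.4% of all genes), without replicate 2 it was 14 (36.8%, against 40.7%) and without replicate 3 it was 17 (44.7%, against 41.9%). It was 13 without dorsal array 1 (34.2%, against 32.2%), 13 without dorsal array 2 (34.2%, against 30.8%) and 14 without dorsal array 3 (36.8%, against 30.5%). It was 15 without ventral array 1 (39.5%, against 27.1%), 11 without ventral array 2 (28.9%, against 26.5%) and 11 without ventral array 3 (28.9%, against 28.1%). Among genes with a mean above the median of all genes it was 4 of 15 (26.7%, against 17.7%). Since the group was chosen from this contrast, nothing is read from these shares.

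**Figure D2:**
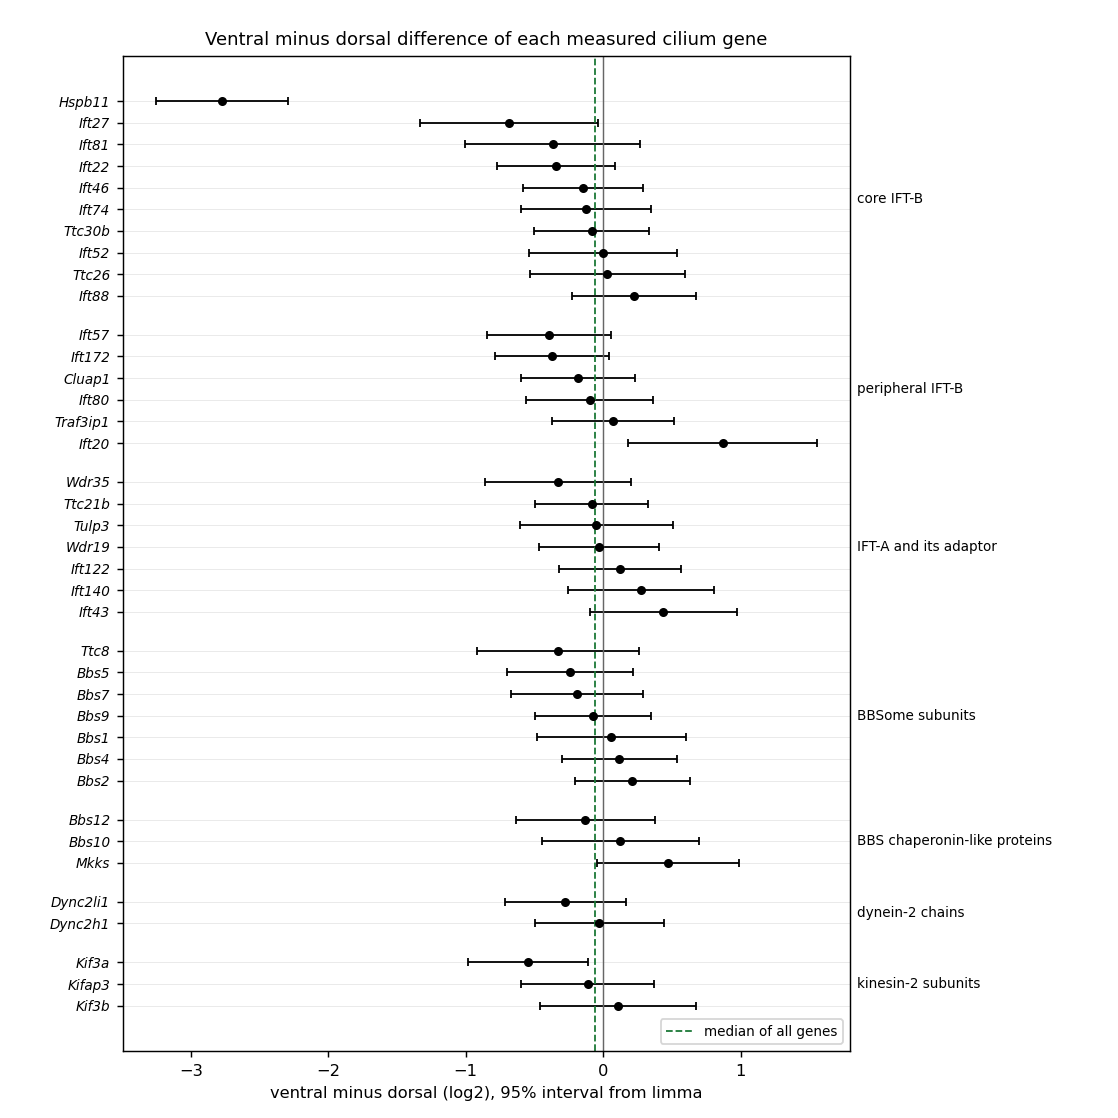
Ventral minus dorsal difference (log2, horizontal axis) of each of the 38 genes, with points for the limma estimate, bars for its 95% interval and a dashed line at the median of all genes, -0.06. Only the interval of Hspb11, -3.25 to -2.29, lies wholly below -2, and most other intervals include 0.

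**Figure D3:**
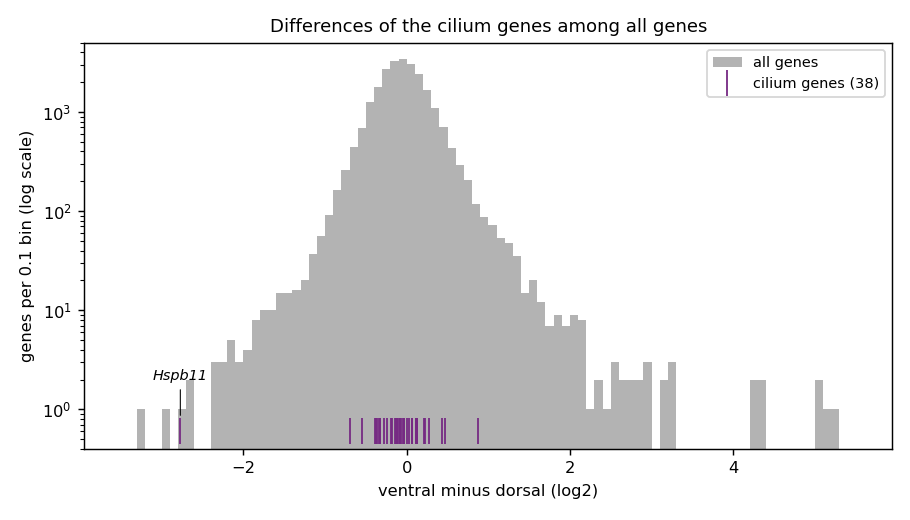
Number of genes (log scale, vertical axis) by ventral minus dorsal difference in bins of 0.1 (log2), in grey for all 24675 genes, with purple ticks for the 38 cilium genes. Hspb11 at -2.77 lies in the thin left tail, while the other ticks lie between -0.69 and 0.87, in the body of the distribution.

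Among the core IFT-B genes, the partner of Hspb11 was the next in size. Ift27 was at 3.57, 4.78 and 3.72 in dorsal and at 3.26, 3.40 and 3.35 in ventral arrays. Dorsal array 2 was high and the groups did not overlap, but the gap between the nearest arrays was 0.17. The difference was -0.69 ± 0.26 (SE), with a 95% interval from -1.34 to -0.04, and over the pairs it was -0.31, -1.38 and -0.37. Pair 2 thus carried most of it. In the same pairs Hspb11 had -2.42, -2.91 and -2.98.

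Ift22, another small GTPase-like subunit, was at 4.21, 4.04 and 4.09 in dorsal and at 3.71, 3.70 and 3.90 in ventral arrays. The groups did not overlap, and the difference was -0.34 ± 0.17. Ift81 and Ift74, which together bind tubulin, had differences of -0.37 and -0.12 with overlapping arrays. For Ift88, a scaffold whose loss removes cilia, the value was 0.22 (95% interval -0.23 to 0.67). The remaining core genes, Ift46, Ift52, Ttc26 and Ttc30b, lay between -0.15 and 0.03, and the sign of Ift52 turned under cyclic loess and under median centring.

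The peripheral IFT-B genes held the largest ventral-higher difference of the group. Ift20, which also sorts cargo at the Golgi, was at 3.04, 3.75 and 4.61 in dorsal and at 4.07, 5.18 and 4.76 in ventral arrays. The arrays overlapped, dorsal array 3 lying above ventral array 1, and the difference was 0.87 ± 0.28 (95% interval 0.18 to 1.55). Within pairs it was 1.03, 1.43 and 0.15, so pair 3 hardly differed. Ift172, the largest IFT-B protein, was at 3.08, 3.17 and 2.97 in dorsal and at 2.60, 2.80 and 2.69 in ventral arrays, a difference of -0.37 ± 0.17 without overlap. Ift57 was at 2.81, 2.88 and 2.51 in dorsal and at 2.47, 2.23 and 2.32 in ventral arrays, again without overlap, with a difference of -0.39 ± 0.18. Both sets of values lay below the array medians. Cluap1, Ift80 and Traf3ip1 lay between -0.18 and 0.07.

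Set against its 15 IFT-B partners, Hspb11 was lower by a similar amount in each pair. The group was chosen with this contrast in view, so these values are a description. The median difference of the partners was 0.01, -0.10 and -0.22 in pairs 1, 2 and 3, and Hspb11 lay below that median by a margin of -2.43, -2.81 and -2.76. The lowest partner of each pair was Ift22 at -0.50, Ift27 at -1.38 and Ift81 at -1.01. Genes were compared by their differences only, since levels of different probe sets are not on a common scale.

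**Figure D4:**
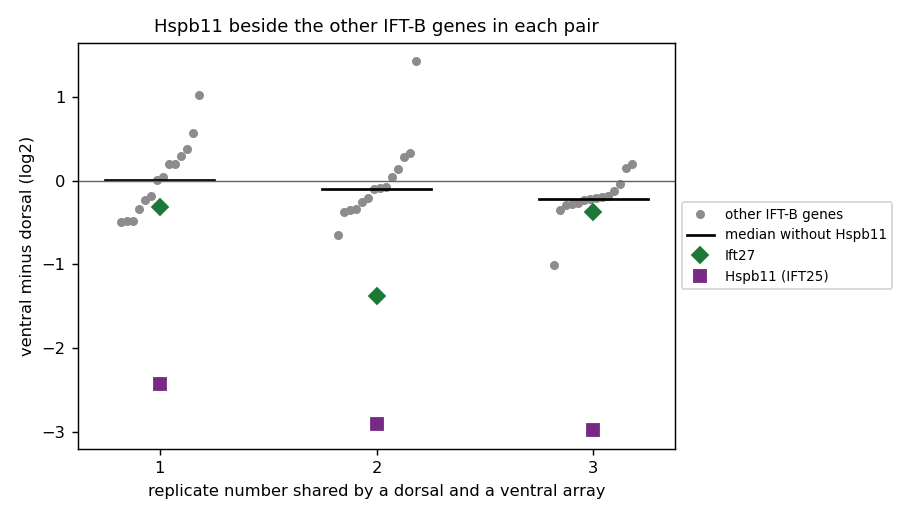
Ventral minus dorsal difference (log2, vertical axis) within each pair of equal replicate number, for Hspb11 (purple squares), Ift27 (green diamonds) and the other 14 IFT-B genes (grey points), with black lines at the median of all 15 partners. Hspb11 lies at -2.42, -2.91 and -2.98, below every partner in each pair, in a contrast that was used to choose the group.

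IFT-A genes showed smaller differences. Ift43, a peripheral subunit, was at 3.75, 3.75 and 3.79 in dorsal and at 4.12, 4.63 and 3.85 in ventral arrays. The groups did not overlap, but ventral array 3 lay only 0.06 above the highest dorsal array, and the difference was 0.44 ± 0.22. Tulp3, the adaptor that brings receptors to IFT-A, was at 3.62, 4.21 and 4.55 in dorsal and at 4.08, 4.01 and 4.14 in ventral arrays, so the dorsal arrays surrounded the ventral ones. The other subunits ran from -0.33 for Wdr35 to 0.27 for Ift140, with Ift122, Wdr19 and Ttc21b between them, and all overlapped.

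BBSome subunits lay on both sides of 0. Bbs2 was at 2.81, 2.86 and 2.66 in dorsal and at 2.99, 2.98 and 3.00 in ventral arrays. These values did not overlap, yet the difference was 0.21 ± 0.17 and all of them lay below the array medians. Ttc8, the BBS8 subunit, was at 4.15, 3.39 and 3.18 in dorsal and at 3.28, 3.15 and 3.30 in ventral arrays, with a difference of -0.33 ± 0.24 and dorsal array 1 above all others. Bbs9, a scaffold of the complex, was at 3.90, 3.75 and 3.63 in dorsal and at 3.70, 3.65 and 3.70 in ventral arrays. Bbs1, Bbs4, Bbs5 and Bbs7 had differences from -0.24 to 0.12.

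The chaperonin-like proteins that help assemble the BBSome are Mkks, Bbs10 and Bbs12. Mkks was at 2.99, 3.09 and 2.63 in dorsal and at 3.28, 3.31 and 3.54 in ventral arrays, with a difference of 0.47 ± 0.21 and no overlap. Bbs12 was at 4.38, 4.50 and 4.51 in dorsal and at 4.57, 3.98 and 4.44 in ventral arrays, which overlapped. For Bbs10 the difference was 0.12.

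Among the kinesin-2 and dynein-2 genes of the group, Kif3a had the only dorsal and ventral arrays that did not overlap. This motor chain of kinesin-2 was at 3.49, 3.24 and 3.53 in dorsal and at 3.00, 2.85 and 2.78 in ventral arrays, a difference of -0.55 ± 0.18 (95% interval -0.98 to -0.11). Its partners in the motor gave 0.11 for Kif3b and -0.11 for the accessory subunit Kifap3. Dync2h1, the heavy chain of dynein-2, was at 2.94, 2.97 and 2.95 in dorsal and at 3.20, 2.90 and 2.67 in ventral arrays, and the sign of its difference of -0.03 turned under cyclic loess and median centring. Dync2li1, the light intermediate chain, was at 2.69, 2.77 and 3.32 in dorsal and at 2.56, 2.56 and 2.83 in ventral arrays, a difference of -0.28 ± 0.18.

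Most of these genes gave dim signals. Means over the 6 arrays ran from 2.07 for Ift80 to 4.40 for Bbs12, 16 of 38 genes (42.1%) lay below the array median on all 6 arrays, against 30.0% of all genes, and 9 (23.7%) lay above it on all 6, against 31.9%. For such genes an interval that includes 0 does not show equal levels.

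The genes beside Hspb11 on chromosome 4 had smaller differences, in both directions. Lrrc42, a leucine-rich repeat protein gene whose promoter window overlaps that of Hspb11 by 258 of 300 bases, was at 2.49, 3.50 and 2.78 in dorsal and at 2.74, 2.47 and 2.90 in ventral arrays. Those arrays overlapped, all values of Lrrc42 but dorsal array 2 lay below the array medians, and the difference was -0.22 ± 0.29. Dio1, the deiodinase gene on the other side, was at 4.51, 4.51 and 4.89 in dorsal and at 4.76, 4.89 and 5.54 in ventral arrays, a difference of 0.42 ± 0.18 towards ventral tissue. The 7 neighbours measured, chosen by place, ran from -0.48 for Tceanc2 to 0.70 for Ndc1. Ndc1 (0.70 ± 0.18) and Tmem59 (0.65 ± 0.25) were higher in ventral arrays without overlap, as were 6.74% of all genes. The other neighbours overlapped.

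**Figure D5:**
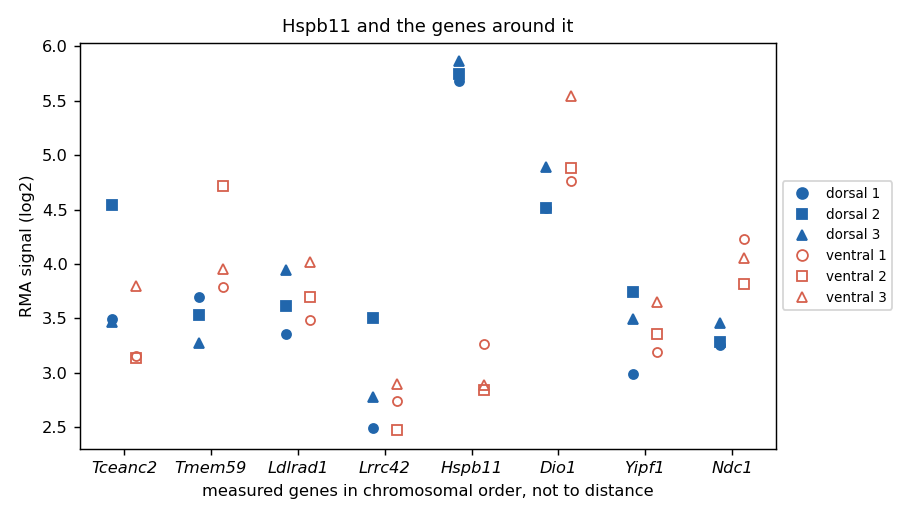
RMA signal (log2, vertical axis) of Hspb11 and 7 measured genes around it in chromosomal order, filled blue for dorsal and open red for ventral arrays 1 to 3. Hspb11 alone has its dorsal arrays, at 5.69 to 5.87, far above its ventral arrays, at 2.84 to 3.26.

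Of 5 promoter motifs searched, 4 had a larger share in the group than among all genes and the TATA box had a smaller one, given here without a test. Promoters were listed for 35 of the 40 genes and for 27025 genes in all, which include non-coding and predicted genes. The X-box pattern printed above occurred in 6 of 35 (17.1%) and in 2.49% of all. The NRF1 pattern GCGCANGCGC occurred in 9 (25.7%) and 5.19%, the GC box in 23 (65.7%) and 38.2%, the CCAAT box (CCAAT) in 23 (65.7%) and 41.1%, and the TATA box (TATAAA) in 1 (2.86%) and 15.7%. All were searched on both strands, and matches to different motifs may share bases. The Hspb11 window held the NRF1 pattern and the GC box, without an X-box match. Measured genes with an X-box match had a median difference of -0.08 over 6 genes, and those without had -0.07 over 27.

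Other cilium genes, listed with earlier results of these arrays known, gave 0 calls in limma at an adjusted p of 0.05 in every list. Further IFT, BBSome and motor subunits had a median difference of 0.07 over 15 genes, 7 of them negative (46.7%, against 58.0% of all genes). The dynein light chain Dynlrb1, which serves both cytoplasmic dyneins, was at 5.25, 3.47 and 4.37 in dorsal and at 7.05, 7.33 and 8.09 in ventral arrays. This difference of 3.12 ± 0.42 ran opposite to that of Hspb11. Dynll1, another light chain, had 0.74 ± 0.19, with all its values below the array medians. The lowest of this list, named after its values were seen, was the dynein light chain Tctex1d2, at 7.13, 6.67 and 5.28 in dorsal and at 5.07, 5.21 and 5.15 in ventral arrays. Its groups did not overlap, by a narrow margin at dorsal array 3, and the difference was -1.22 ± 0.37. Of the 15 genes 3 had lower and 2 had higher ventral values without overlap. Among all genes 12.0% were lower and 6.74% higher without overlap.

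Transition zone genes, which form the gate at the base of the cilium, had a median of -0.13 over 23 genes. Of these 17 were negative (73.9%, against 58.0% of all genes), with -0.44 for Rpgrip1 and -0.44 for B9d2. After cyclic loess 50.8% of all genes were negative, so such counts depend on the scaling. Genes of the basal body and of ciliogenesis had -0.12 over 27. Among them were Cep97, a centriole cap protein, at -0.65 and Pcm1, the scaffold of centriolar satellites, at 0.71. For Pcm1, ventral array 1 stood at 6.45, against 4.56 and 4.69 in the other ventral arrays. Ciliary membrane and signalling genes had -0.08 over 21, with -0.71 for Iqce and 1.51 for Arl2bp, a binding partner of Arl2 and Arl3. Arl2bp was at 7.24 in ventral array 1 and between 3.30 and 4.15 in the other arrays. For Iqce the arrays overlapped, and pair 1 gave 0.02, against -1.18 and -0.96 in pairs 2 and 3. Transcription factors of ciliogenesis had -0.12 over 10, with 0.49 for Rfx3 and -0.42 for Rfx7.

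Genes of motile cilia, which mark another kind of ciliated cell, had a median of -0.15 over 22 genes, 17 of them negative, and 11 lay below the array median on all arrays. Ccdc40, an assembly factor of motile axonemes, had -0.56 ± 0.19, and Ccdc114 had -0.37 ± 0.18. Small heat shock genes, whose family name Hspb11 carries, had -0.15 over 9, with -0.998 ± 0.19 for Hspb1 and -0.61 ± 0.18 for Hspb3. Hspb1 was at 4.70, 4.36 and 4.19 in dorsal and at 3.37, 3.54 and 3.34 in ventral arrays, without overlap. With arrays left out, the medians of these 7 lists ranged from -0.34 to 0.09.

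Markers of nearby tissues were read beside these values, and ventral array 1 stood apart in several lists. Of the 6 sclerotome markers 3 had no overlap and lower ventral values, as did 12.0% of all genes. The 3 markers included Twist1, a mesenchymal factor, at 6.52 and 5.12 in the dorsal and ventral group means. The other 3 overlapped, with Pax1 at -0.02, and the list median was -0.40, or -0.37 without ventral array 1. List means of the sclerotome markers were 4.39 to 4.54 over dorsal and 3.79 to 4.11 over ventral arrays. The 4 notochord markers measured overlapped, with a median of -0.22 and list means of 3.57 to 4.10 and 3.54 to 3.66; without dorsal array 2 the median was -0.06.

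Neural tube markers had a median of 0.46 over 6 genes, with list means of 3.11 to 3.44 over dorsal and 3.33 to 4.75 over ventral arrays. Sox2, a neural progenitor factor, was at 7.61 in ventral array 1 and at 2.20 and 2.72 in the others, and without that array the list median was -0.13, with 2 of 6 positive. Fabp7, a radial glial marker, did not overlap and was higher in all 3 ventral arrays. Erythroid markers had a median of -0.20 over 7 genes, which became 0.88 without ventral array 1, with 5 of 7 positive, and -0.68 without ventral array 3. Hbb-bt, a globin of red cells, was at 6.11 in ventral array 1 and at 9.84 and 10.98 in ventral arrays 2 and 3. Signal of this globin thus varied widely between arrays of a region. Slc4a1 and Alas2, also on this list, varied less over the ventral arrays, at 3.60, 3.52 and 3.62 and at 3.81, 3.37 and 3.66.

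Endothelial markers had a median of 0.04 over 7 genes, or -0.03 without ventral array 1, and all 7 overlapped. Pecam1, a junction protein of endothelium, lay below the array median on all 6 arrays, and Cdh5, another junction protein, lay above it on all 6. Medians were -0.09 over 6 blood progenitor markers, -0.03 over 6 splanchnic and coelomic markers (0.19 without ventral array 1) and -0.03 over 4 sympathetic markers. Without ventral array 1 the Hspb11 difference was -2.91. The part of tissue make-up in the Hspb11 difference was not tested.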

How the data were processed

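The data are 6 arrays of the Affymetrix mouse Gene 2.0 ST type, 3 of dorsal and 3 of ventral tissue at E10.5. Input was 200 to 1000 pg of total RNA, amplified before labelling, per the labels' protocols. The deposited values are log2 signals made with Affymetrix Expression Console and RMA, per the submitters' processing notes, without versions. The log base was taken from the values. Of 25429 probe sets, 24675 had 1 gene symbol and 754 were left out as unnamed. All 24675 matched the GRCm38.p6 gene table by gene number. The genome build of the probe sets, detection calls and scan dates are not given in the sources used here, and the number of arrays limits the precision.

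Regions were compared with limma 3.58.1 (R 4.3.3; lmFit, eBayes, two-sided, Benjamini-Hochberg over all 24675 genes, adjusted p of 0.05), with no filter on dim genes. The block was the replicate number, since per the labels the same embryos gave dorsal and ventral pieces. The labels do not say that equal numbers mean the same embryo, and deviations from the group means correlated at only 0.04, -0.01 and 0.06 over all genes for numbers 1, 2 and 3. The fit without the block stands beside it. Where samples are not separate embryos, p-values cover only the spread among arrays, which may be technical. An exact permutation test of 3 against 3 arrays without the block cannot give a p below 0.1.

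The genes and lists were chosen with earlier results of these data known. Values by array are given for Hspb11, Ift27, genes whose groups did not overlap, and in each complex the gene with the largest difference and that with the highest mean signal, and in other cilium lists the 2 genes with the smallest p are named, as are the genes beside Hspb11. Alternatives were other scalings, filters on dim genes, a trended prior and leaving out arrays. The fitting procedure was run on simulated data with independent noise and no replicate effect. That run does not show whether the block suits these arrays. Promoter sequences are RefSeq's, GRCm38.p6.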

Additional observations from a re-analysis of the deposited data

How the results depend on the processing

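The Hspb11 difference ranged from -2.80 to -2.73 over scalings, filters, the trended prior and the fit with no replicate block, and from -2.95 to -2.67 when arrays were left out. Its margin below the IFT-B partners ranged from -2.77 to -2.49, and from -2.79 to -2.60 when a replicate number was left out. With no replicate block limma called 1 gene, and 1 of the cilium genes, Hspb11 in both counts, against 0 with the block. Leaving out arrays gave 0 to 5 genes and 0 to 1 cilium genes. With the block, Hspb11 had an adjusted p in limma of 0.0748, 0.35 and 0.287 without replicates 1, 2 and 3. In fits without the block it was 0.0406 without dorsal array 3, 0.0177 without ventral array 1 and 0.0446 without ventral array 2. It was 0.0771, 0.0622 and 0.0557 without dorsal array 1, dorsal array 2 and ventral array 3. Since Hspb11 led to the choice of the group, no support is drawn from these values. Genes lower in ventral tissue numbered 23 to 27 when arrays were left out. The filter at the median of all genes left 15 cilium genes, 10 of them lower in ventral tissue and 4 without overlap (26.7%, against 17.7% of all genes that pass it). The count without overlap ranged from 11 to 21 (28.9% to 55.3%) when arrays were left out, against 26.5% to 42.4% of all genes. The median difference of the group moved to -0.01 after cyclic loess and -0.04 after median centring, and all genes moved from -0.06 to -0.00 and -0.02. Without Hspb11 it was -0.08. That alternative, the marker lists without ventral array 1 and the shares over all genes with arrays left out were chosen after seeing the data. Dim signal limits what most of these genes can show.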
